A study of Mus musculus with 4 samples.

Results

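The gelsolin family comprises actin-binding proteins built from repeated gelsolin-like domains. Its 8 mouse genes examined here, Avil, Vil1, Vill, Gsn, Scin, Capg, Svil and Flii, were chosen by name from the 44788 genes of the deposited count table, in which each has a row. The set was drawn up because Avil differed strongly between the groups. The difference of Avil is therefore given as a description with no test, and the other 7 were chosen for their protein family. RNA was sequenced from bone marrow stromal cells of Setd2 fl/fl mice (C57BL/6J), in which loxP sites flank part of Setd2, the gene of a methyltransferase that acts on histone H3. Cells at passage 2 were infected with a lentivirus carrying Cre recombinase (2 libraries), which deletes the floxed part, or GFP as the control (2 libraries), and infected cells of both groups were selected for 4 days in 2 µg/ml of puromycin. Both groups carry the floxed alleles, a lentivirus and the selection, and no library had Cre without floxed alleles, so loss of Setd2 and the presence of Cre cannot be told apart. Nothing in the labels tells if libraries of the same virus had separate cultures or animals as their source. The p-values therefore cover the spread between single libraries and no more, and that spread could be purely technical.

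Gelsolin-like domains bind actin monomers and the sides and barbed ends of filaments, in most members under the control of calcium and phosphoinositides. Gelsolin, adseverin (Scin) and villin (Vil1) can sever and cap filaments, whereas Capg caps without severing. Advillin (Avil) is a close relative of villin. Villin, advillin, villin-like protein (Vill) and supervillin (Svil) also end in a headpiece domain, which in villin binds filaments. Advillin is best known from sensory neurons and from tuft cells of epithelia, villin from the brush border of the gut, and gelsolin from fibroblasts and other mesenchymal cells.

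The promoter of Avil is shown because this gene carries the difference, beside those of Vill, which had a like low level, and of Flii, an abundant member. Each sequence is the 250 bases before the transcript start that RefSeq's promoter table uses (GRCm38.p6, 5′ to 3′ on the strand of the gene). For Avil and Vill that start lies inside the widest annotated span of the gene, so the Avil window lies within this span and the Vill window runs into it. Both strands were searched for the TATA box (TATAAA), for the CCAAT box, for the GC box (GGGCGG) and for the CArG box of serum response factor, and capitals mark the matches.
Avil: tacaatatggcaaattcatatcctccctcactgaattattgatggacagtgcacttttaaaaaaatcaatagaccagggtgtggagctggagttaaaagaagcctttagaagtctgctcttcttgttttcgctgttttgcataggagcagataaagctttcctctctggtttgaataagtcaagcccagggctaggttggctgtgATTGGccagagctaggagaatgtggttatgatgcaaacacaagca
Vill: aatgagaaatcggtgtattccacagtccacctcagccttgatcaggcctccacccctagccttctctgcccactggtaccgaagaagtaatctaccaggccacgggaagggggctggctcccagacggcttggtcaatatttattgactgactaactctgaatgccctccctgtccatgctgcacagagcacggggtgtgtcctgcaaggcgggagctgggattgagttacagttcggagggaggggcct
Flii: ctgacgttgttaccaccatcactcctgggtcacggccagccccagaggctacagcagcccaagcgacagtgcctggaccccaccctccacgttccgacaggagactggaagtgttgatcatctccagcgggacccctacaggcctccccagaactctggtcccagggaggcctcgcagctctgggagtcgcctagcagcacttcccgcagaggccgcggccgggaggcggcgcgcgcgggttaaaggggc
The Avil window lies at chr10:127000459-127000708 on the plus strand, the Vill window at chr9:119052528-119052777 on the plus strand and the Flii window at chr11:60727264-60727513 on the minus strand. Avil had 1 CpG and a GC content of 42.0%, Vill 7 CpGs and 56.4%, and Flii 17 CpGs and 66.8%, against a median of 6 CpGs and 52.4% over 32851 promoter windows of the same length. Of these windows, 18.8% had as few CpGs as that of Avil. The Avil window held CCAAT on the opposite strand (capitals), a motif found in 33.8% of all windows. No match to the 4 motifs was found in the windows of Vill and Flii. Of the 7 members on chromosomes other than 18, Vil1 alone matched the CArG box, which 1.47% of all windows hold, and none matched TATAAA, which 12.4% hold.

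The libraries held 14311924 and 14315903 counts with Cre and 12806928 and 12371994 counts with GFP. Setd2 averaged 35.2 ± 4.09 CPM (counts scaled by TMM to a common library size) with Cre and 106 ± 0.0742 CPM with GFP (mean ± SD, n = 2 each), so Setd2 was lower in both libraries labelled Cre. GFP replicate 2 stood apart in ribosomal RNA: Rn18s-rs5 took 1.35% and 1.21% of counts with Cre, 2.07% in GFP replicate 1 and 7.45% in GFP replicate 2. Of 14483 genes tested with edgeR's quasi-likelihood test, 1009 (6.97%) passed an adjusted p of 0.05, 542 of them higher (3.74%) and 467 lower (3.22%) in Cre. With no TMM factors, scaled by library size, 347 were higher and 183 lower. Without GFP replicate 2 edgeR called 0 genes, with 2197 at an unadjusted p under 0.05, and without GFP replicate 1 it called 12. Of the named genes beside Avil, Setd2 alone passed without GFP replicate 1 (edgeR adjusted p = 0.0417) and none passed without GFP replicate 2 (edgeR adjusted p = 0.124 for Setd2), so every call given below is lost when either GFP library is left out.

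Avil had a lower level in Cre libraries than in GFP libraries. It had 41 and 32 counts in the Cre libraries and 106 and 111 counts in the GFP libraries. Scaled, this was 2.84 and 2.21 CPM with Cre, against 8.07 and 9.45 CPM with GFP. Both Cre libraries lay below both GFP libraries, and the gap between the groups was wider than the gap between the libraries of either. The means were 2.52 ± 0.442 CPM with Cre and 8.76 ± 0.979 CPM with GFP, a log2 fold change (Cre over GFP) of -1.79 with a standard error of 0.19, or 0.29 times the GFP level. Of all tested genes, 0.0898% had a larger absolute change, a rank that follows from the choice of Avil for its difference. The counts summed over libraries were 73 with Cre (exact 95% Poisson interval 57.2 to 91.8) and 217 with GFP (189 to 248), which covers counting error only. The log2 fold change lay between -1.97 and -1.62 when a single library was left out, where the single library that remains is taken to scatter as much as the pair it is set against. In bulk RNA, fewer cells that express Avil and less Avil RNA per cell cannot be told apart.

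**Figure D1:**
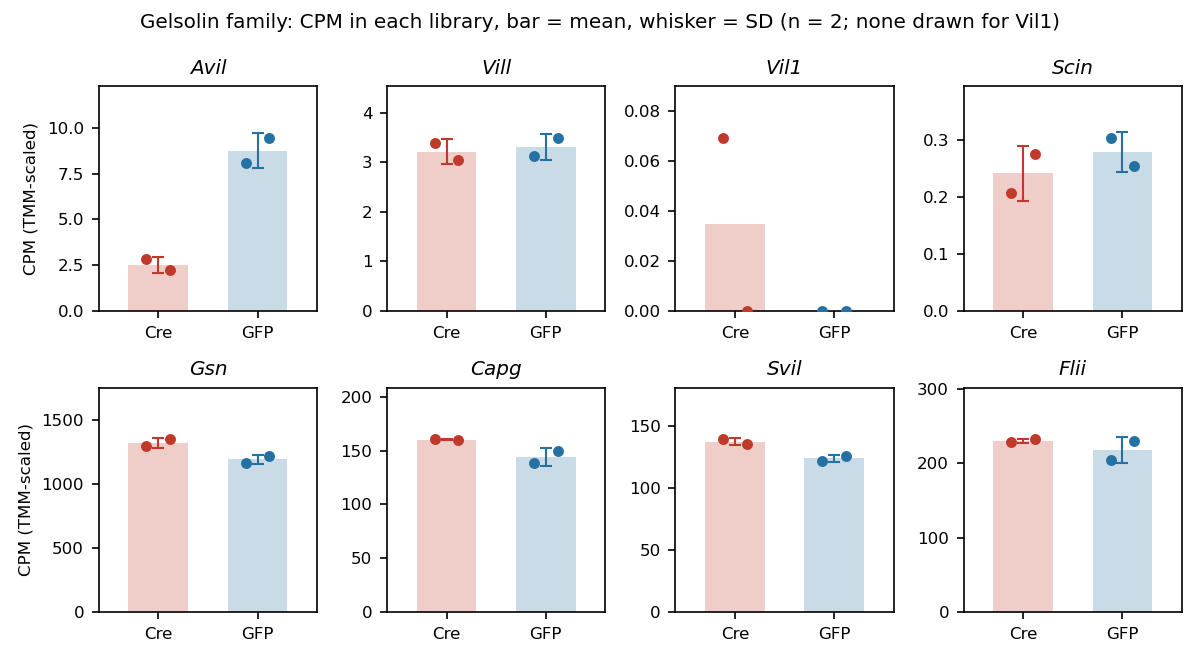
CPM of the 8 gelsolin family genes in each library (points), with the mean as a bar and the SD as a whisker (n = 2 per group; no whisker for Vil1), Cre to the left of GFP. Each panel has its own axis from 0. Avil stood at 2.84 and 2.21 CPM with Cre against 8.07 and 9.45 CPM with GFP, while the panels of Gsn, Capg, Svil, Flii and Vill show groups that lie close together.

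Vil1 and Scin were at or near the limit of detection, and Vill was low. Vil1, the villin of microvilli, had 1 and 0 counts with Cre and 0 counts in both GFP libraries, where 3 counts of the summed total, the limit that a count of 0 allows, correspond to 0.119 CPM. Scin, the severing protein adseverin, had 3 and 4 counts with Cre and 4 and 3 counts with GFP, and the intervals of the sums were the same (7 counts, 2.81 to 14.4, in each group). Neither gene passed the filter on low counts, so 6 of the 8 members entered the fit, and no difference of Vil1 or Scin was detectable at this depth. Vill had 3.39 and 3.04 CPM with Cre and 3.12 and 3.49 CPM with GFP. The Vill groups overlapped, and its log2 fold change was -0.04 (95% interval -0.48 to 0.41, edgeR adjusted p = 0.954).

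The 4 abundant members stood slightly higher in Cre libraries and none passed. Gsn, the secreted and cytoplasmic severing protein gelsolin, had 1292 and 1346 CPM with Cre and 1166 and 1217 CPM with GFP. Its groups did not overlap, but the log2 fold change was 0.15 (95% interval 0.02 to 0.27, edgeR adjusted p = 0.162). Capg, the capping protein abundant in macrophages, had 160.3 and 160.0 CPM with Cre and 138 and 149.9 CPM with GFP, and Svil, the membrane-associated supervillin, had 139 and 135 CPM with Cre and 122 and 126 CPM with GFP. Both genes had groups that did not overlap, with log2 fold changes of 0.15 for Capg (edgeR adjusted p = 0.153) and 0.14 for Svil (edgeR adjusted p = 0.179). Flii, which joins leucine-rich repeats to gelsolin-like domains and also acts as a coactivator of nuclear receptors, had 228 and 232 CPM with Cre and 205 and 229.8 CPM with GFP. GFP replicate 2 lay above Cre replicate 1, so the Flii groups overlapped (log2 fold change 0.08, edgeR adjusted p = 0.520). Of the 5 tested members beside Avil, 0 passed in edgeR, DESeq2 or limma-voom, with 3, 2 and 3 at an unadjusted p under 0.05 in these tools. Over all 14483 tested genes, 3031, 1463 and 3042 were at an unadjusted p under 0.05. These totals are also the background for the unadjusted counts of the lists below. Groups that did not overlap, as in Avil, Gsn, Capg and Svil, were found in 7248 of all 14483 tested genes (50%).

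Markers of macrophages stood beside those of stromal cells in these cultures, and Capg is also a macrophage gene. The summed level of 11 macrophage markers was 2351 and 2337 CPM with Cre and 1991 and 2048 CPM with GFP, and none was at 0. Lyz2, the lysozyme gene, made up most of this sum, and without it the other 10 markers summed to 666 and 639.5 CPM with Cre and 603 and 639 CPM with GFP, a Cre library and a GFP library at nearly the same level. Cd68 (0.30), Lyz2 (0.27), Mrc1 (0.42) and Tyrobp (0.25) rose on the log2 scale and Emr1, the gene of F4/80, fell (-0.30). These were 36.4% higher and 9.09% lower of the 11 markers, against 3.74% and 3.22% of all tested genes. The other macrophage markers did not pass and lay between -0.08 for Ptprc and 0.31 for Cd14 (edgeR adjusted p = 0.0646 for Cd14). Tyrobp did not pass in DESeq2 (adjusted p = 0.180) or in edgeR with library size in place of TMM (adjusted p = 0.0531). The part of these cells in the level of Capg was not tested. Of 12 stromal markers, all tested, Thy1 (0.61), Col1a1 (0.52), Ly6a (0.52) and Col1a2 (0.29) rose, Cxcl12 fell (-0.28) and none was at 0. The shares were 33.3% higher and 8.33% lower, against the same 3.74% and 3.22%. The other stromal markers did not pass and lay between -0.18 for Nt5e and Lepr and 0.12 for Vcam1. The call of Thy1 was lost in DESeq2 (adjusted p = 0.126) and that of Cxcl12 in edgeR with library size in place of TMM (adjusted p = 0.0976). The summed level was 19641 and 20643 CPM with Cre and 15803 and 15682 CPM with GFP, nearly all from the collagen genes Col1a1 and Col1a2. Without these the summed level of the other 10 stromal markers went the other way. It was 1561 and 1559.5 CPM with Cre and 1758 and 1702 CPM with GFP. Single genes among the 10 differed in direction, as Thy1 and Ly6a rose and Cxcl12 fell.

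Per kilobase of the longest coding transcript, which allows levels of different genes to be set side by side, Gsn made up most of the family's RNA. Gsn stood at 497 ± 14.5 CPM per kb with Cre and 449 ± 13.5 CPM per kb with GFP, or between 71.4% and 72.7% of the family's summed level in each library. Capg followed at 114 ± 0.143 CPM per kb with Cre and 103 ± 5.93 CPM per kb with GFP, then Flii (56.7 ± 0.657 with Cre, 53.6 ± 4.28 with GFP) and Svil (17.3 ± 0.363 with Cre, 15.7 ± 0.367 with GFP). These 4 held the same order in both groups, and the gaps between neighbours were wider than their SDs. The order of Avil and Vill differed between the groups. Avil was at 0.832 ± 0.146 CPM per kb with Cre and 2.89 ± 0.323 CPM per kb with GFP, and Vill at 1.11 ± 0.0851 CPM per kb with Cre and 1.14 ± 0.0902 CPM per kb with GFP. With Cre the counting intervals of the summed counts of Avil (57.2 to 91.8) and Vill (75.1 to 114) overlapped, so their order there does not go beyond counting error. The order with GFP follows from the difference for which Avil was chosen and carries no test. Avil made up 0.138% and 0.104% of the family's level per kb in Cre libraries and 0.438% and 0.485% in GFP libraries.

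**Figure D2:**
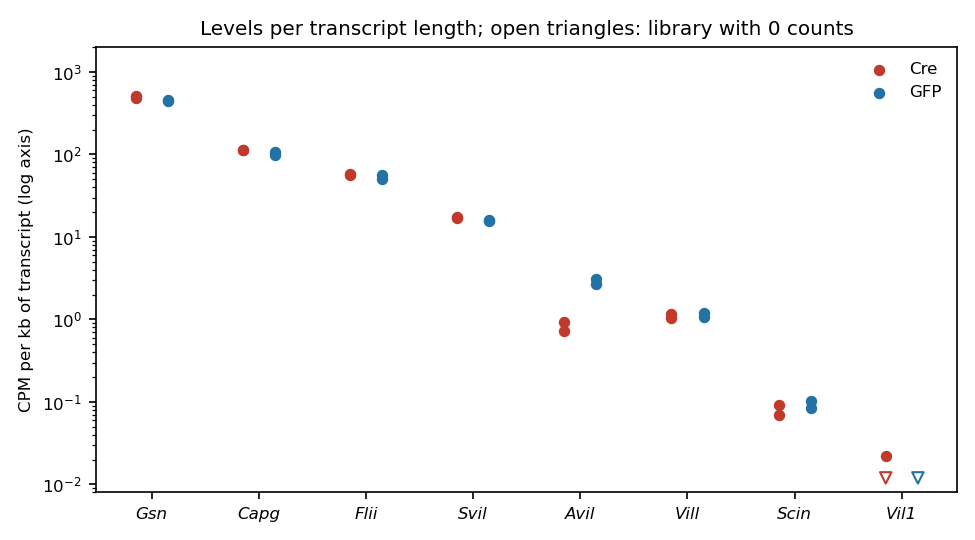
Level of each member in CPM per kilobase of its longest coding transcript (log axis), 1 point per library, Cre to the left of GFP, ordered by the GFP mean. Open triangles mark groups with a library at 0 counts. Gsn is highest in both groups, at 497 with Cre and 449 with GFP on average, and the order of Avil and Vill differs between Cre and GFP.

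The counts of Avil could be told apart from those of its relatives. None of the 3453 windows of 50 bases in annotated Avil transcripts occurred in a transcript of another family member. In other genes, 3.48% of these windows occurred, all in Tsfm, the gene of a mitochondrial translation elongation factor on the opposite strand, whose exons cover 4.86% of the exon bases of Avil in GENCODE M21. In RefSeq the genes do not overlap, and 1337 bases lie between their spans. No strand setting is recorded, so reads there cannot be assigned. Tsfm had 11.6 and 12.4 CPM with Cre and 16.2 and 11.8 CPM with GFP, with groups that overlap (log2 fold change -0.23, edgeR adjusted p = 0.336).

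Avil lies on chromosome 10 from 127000065 to 127020994 (GRCm38) in a closely packed stretch of genes. Its annotated span begins 89 bases after the end of Ctdsp2, a small phosphatase gene on the same strand, and 733 bases separate that end from the start used for the promoter window. Ctdsp2 had 73.0 and 80.7 CPM with Cre and 75.8 and 85.9 CPM with GFP (log2 fold change -0.07, standard error 0.07, edgeR adjusted p = 0.637). The Ctdsp2 groups overlapped. On the other side lie Tsfm, LOC100504608 (Eef1akmt3), the tRNA methyltransferase gene Mettl1, the ubiquitin ligase gene March9, the cell cycle kinase gene Cdk4 and Tspan31. Of these, Cdk4 had 227 and 234 CPM with Cre and 213 and 220.1 CPM with GFP (log2 fold change 0.09), and Tspan31 stood at -0.01, Mettl1 at -0.16, March9 at -0.13 and LOC100504608 at -0.36. Mir546, annotated within Ctdsp2 and counted at 12 and 17 with Cre and 18 and 18 with GFP, stood at -0.53 (standard error 0.35). Of these 8 tested neighbours within 50 kb of Avil, 0 passed in edgeR, with adjusted p-values from 0.336 to 0.963 and 0 at an unadjusted p under 0.05. Over all 14483 tested genes, 1009 (6.97%) passed in edgeR and 3031 were at an unadjusted p under 0.05.

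**Figure D3:**
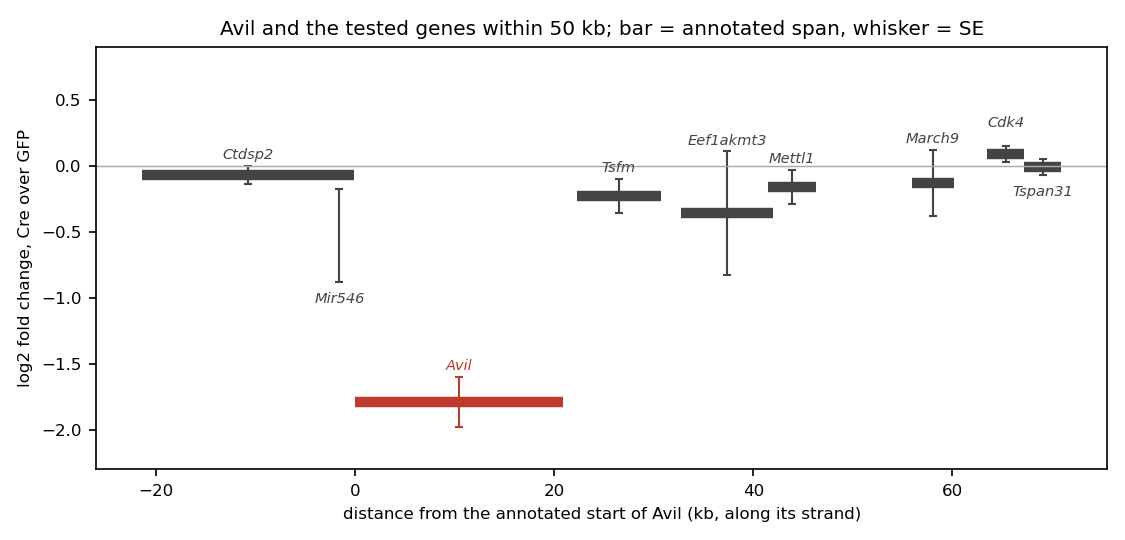
Log2 fold change (Cre over GFP) of Avil and of the tested genes within 50 kb, placed by distance from the annotated start of Avil in kilobases. Horizontal bars are annotated spans and whiskers are standard errors. Avil stands at -1.79, Ctdsp2 before it at -0.07 and Tsfm after it at -0.23.

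A shared arrangement was found beside the villin-like members, which the choice of genes had not used. Avil follows Ctdsp2, Vil1 follows Ctdsp1 and Vill follows Ctdspl, in each case on the same strand and with annotated gaps of 89, 12098 and 8609 bases. An annotated miR-26 precursor (Mir26a-2, Mir26b and Mir26a-1) lies within each of the 3 phosphatase genes. Ctdsp1 had 55.5 and 57.6 CPM with Cre and 52.8 and 55.5 CPM with GFP (log2 fold change 0.06, edgeR adjusted p = 0.690). Ctdspl had 18.8 and 16.3 CPM with Cre and 22.7 and 26.1 CPM with GFP, and it fell (log2 fold change -0.47, standard error 0.11, edgeR adjusted p = 0.00465; DESeq2 adjusted p = 0.0894). Within the pairs, Avil differed beside a Ctdsp2 level with overlapping groups, and Ctdspl fell beside a Vill level with overlapping groups. Ctdspl was the only gene within 50 kb of a family member other than Avil that passed. Of all tested genes, 6.97% passed, so a single call among such neighbours is no result about the arrangement.

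Most markers of the cell types best known for Avil were at few or no counts. Of 15 sensory neuron markers, 3 passed the filter on low counts. Scn9a, Scn11a and Tac1 were at 0 in all libraries, Pou4f1 and Calca had at most 1 count per library, and Prph had 1 and 5 counts with Cre and 1 and 3 with GFP. Tubb3 (0.40) and Uchl1 (0.31), which many other cells also express, rose, and they made up most of the list's summed level of 196 and 202 CPM with Cre and 157 and 149 CPM with GFP. The shares were 66.7% higher and 0% lower of the 3 tested, against 3.74% and 3.22% of all tested genes. The call of Uchl1 was lost in DESeq2 (adjusted p = 0.281) and in edgeR with library size in place of TMM (adjusted p = 0.0583), and exons of an antisense gene cover 18.1% of its exons, so its count is uncertain. The third tested marker, the sensory neuron channel gene P2rx3, had 14 and 16 counts with Cre and 11 and 3 counts with GFP and did not pass (log2 fold change 0.87, edgeR adjusted p = 0.294). Of 10 tuft cell markers, Il25 and Chat were at 0, and Pou2f3, Trpm5 and Gfi1b had at most 1 count per library. In 4 tested tuft cell genes, 0 passed in edgeR, DESeq2 or limma-voom, and 0 had an unadjusted p under 0.05. Of all tested genes, 6.97% passed in edgeR. The summed level of the 10 was 100.4 and 97.2 CPM with Cre and 102 and 103 CPM with GFP, mostly from Dclk1.

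The genes whose profile over the 4 libraries was most like that of Avil included Setd2, the gene that Cre targets here. Likeness was the Euclidean distance between centred log2 CPM values over 4 libraries. It was taken among 12179 genes with at least 1 CPM on average, leaving out provisional symbols such as Gm, Rik and LOC names. The nearest were Setd2 (distance 0.23), Slitrk6 (0.51), a synaptic adhesion gene, the ephrin receptor gene Epha7 (0.56), the coagulation factor gene F5 (0.61) and the cholesterol acyltransferase gene Soat2 (0.62). Slitrk6 averaged 0.622 ± 0.0972 CPM with Cre and 2.09 ± 0.0617 CPM with GFP, and Epha7 0.968 ± 0.294 CPM with Cre and 2.39 ± 0.360 CPM with GFP. These genes were picked by the same libraries, so their differences are no separate evidence, and the lower counts of Slitrk6 (8 and 10 with Cre, 28 and 24 with GFP) carry wide counting error. Over 4 libraries in 2 groups the distance ranks genes largely by a fall like that of Avil, for which Avil was chosen. Nearness to Avil therefore does not show shared regulation.

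Other genes of the actin filament were read from lists by role, for which 82 of 92 genes were tested. Of these, 10 rose (12.2%) and 4 fell (4.88%), against 3.74% and 3.22% of all tested genes, and the median log2 fold change was 0.06, against 0.00 over all tested genes. These shares, and those of the marker lists above, were not matched for level, and genes with more counts can pass at smaller changes. In DESeq2 7 rose and 3 fell, with library size in place of TMM 6 rose and 2 fell, and 0 genes passed without GFP replicate 1 or without GFP replicate 2. The lowest value in the lists, -0.81 for the nucleator gene Spire2, did not pass (edgeR adjusted p = 0.140).

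On the lists of severing and disassembly and of actin monomer binding, the genes that passed were higher in Cre. Cotl1 stands on the first list although it binds filaments in competition with cofilin. It averaged 135 ± 1.25 CPM with Cre and 104 ± 3.18 CPM with GFP (log2 fold change 0.38, edgeR adjusted p = 0.00023). The coronin genes Coro1a (0.33) and Coro1b (0.22) rose too, which made 3 rises among the 15 genes of that list. Neither coronin gene passed with library size in place of TMM (edgeR adjusted p = 0.0789 and 0.0623) or in DESeq2 (adjusted p = 0.368 and 0.0692). The cofilin gene Cfl1 stood at 0.15 (edgeR adjusted p = 0.186) and the destrin gene Dstn at 0.10 (edgeR adjusted p = 0.372), values close to that of Gsn. Of 9 monomer-binding genes, the thymosin gene Tmsb10 rose (0.27, edgeR adjusted p = 0.0076), while the profilin gene Pfn1 stood at 0.16 (edgeR adjusted p = 0.118). Of 12 capping genes, 0 passed in edgeR, DESeq2 or limma-voom, with 3, 1 and 4 at an unadjusted p under 0.05, and the capping protein gene Capzb stood at 0.12.

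Genes of actin itself, of bundling and of nucleation went both ways. Acta1, skeletal muscle actin, rose to 57.8 ± 1.71 CPM with Cre, against 38.2 ± 2.35 CPM with GFP (log2 fold change 0.60, edgeR adjusted p = 4.44e-06), and Actg2, an actin of smooth muscle, fell (-0.29). Actb, the main cytoplasmic actin, stood at 0.09 (edgeR adjusted p = 0.390). The actin genes are alike in coding sequence, and how reads with several matches were handled is not known here, so their counts are uncertain. Of 15 bundling and crosslinking genes, Tagln2 (0.41), the filamin gene Flnc (0.26) and the calponin genes Cnn3 (0.23) and Cnn1 (0.22) rose and Tagln fell (-0.32). Exons of other genes cover 67.9% of those of Tagln, 17.7% of those of Cnn3, 16.5% of those of Cfl1 and 13.5% of those of Coro1b, whose counts are uncertain. Of 26 nucleation genes, Cobl (0.52), which nucleates unbranched filaments, rose, and the formin genes Daam2 (-0.56) and Diap3 (-0.42) fell. DESeq2 did not call Cobl (adjusted p = 0.0569) or Diap3 (adjusted p = 0.0667). In edgeR with library size in place of TMM the calls of Actg2 (adjusted p = 0.0882), Cnn3 (adjusted p = 0.0943), Cnn1 (adjusted p = 0.0579) and Tagln (adjusted p = 0.0600) were lost.

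Genes that share a domain with the family showed 1 call in edgeR, where 6.97% of all tested genes passed. Of the 3 tested genes with a villin headpiece outside the family, Ablim1, which joins LIM domains to a headpiece, fell to 29.3 ± 0.657 CPM with Cre, against 38.0 ± 0.116 CPM with GFP (log2 fold change -0.37, edgeR adjusted p = 0.00453). DESeq2 (adjusted p = 0.0852) and edgeR with library size in place of TMM (adjusted p = 0.0527) did not call it. The dematin gene Dmtn stood at 0.09 and Ablim3 at -0.07. Of the 6 COPII coat genes of the Sec23 and Sec24 families, whose proteins hold a gelsolin-like domain and work in vesicle budding, 0 passed in edgeR, DESeq2 or limma-voom and 0 had an unadjusted p under 0.05, with values from -0.13 for Sec24a to 0.09 for Sec24c. Of 6 tested microvillus and brush border genes, 0 passed in these tools and 2 had an unadjusted p under 0.05 in each. In edgeR these were the ezrin gene Ezr at -0.20 (adjusted p = 0.0881) and Slc9a3r1, whose protein binds ezrin, at 0.22 (adjusted p = 0.0717), while the moesin gene Msn stood at -0.06 (adjusted p = 0.644). Cdhr2, of the brush border, was at 0 in all libraries.

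**Figure D4:**
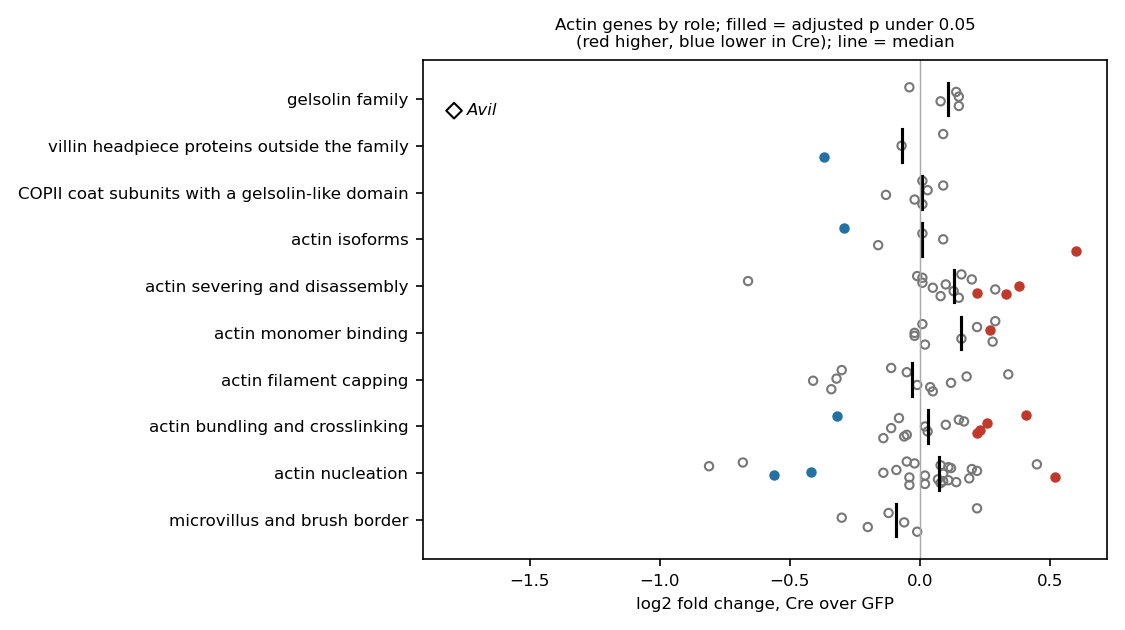
Log2 fold change (Cre over GFP) of the tested genes in the gelsolin family and in the lists of actin, shared-domain and microvillus genes (cell type markers are not drawn), 1 point per gene, with filled points for genes past an adjusted p of 0.05 and a line at the median. The diamond is Avil, shown without a test. Avil, for whose difference the family was drawn up, stands at -1.79. The genes of the other lists drawn lie between -0.81 and 0.60.

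Over 13 alternatives the log2 fold change of Avil lay between -1.97 and -1.62, that of Gsn between 0.12 and 0.18, that of Capg between 0.10 and 0.21, that of Svil between 0.12 and 0.18 and that of Flii between 0.00 and 0.17. None of Gsn, Capg, Svil, Flii and Vill passed in any of the 13.

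**Figure D5:**
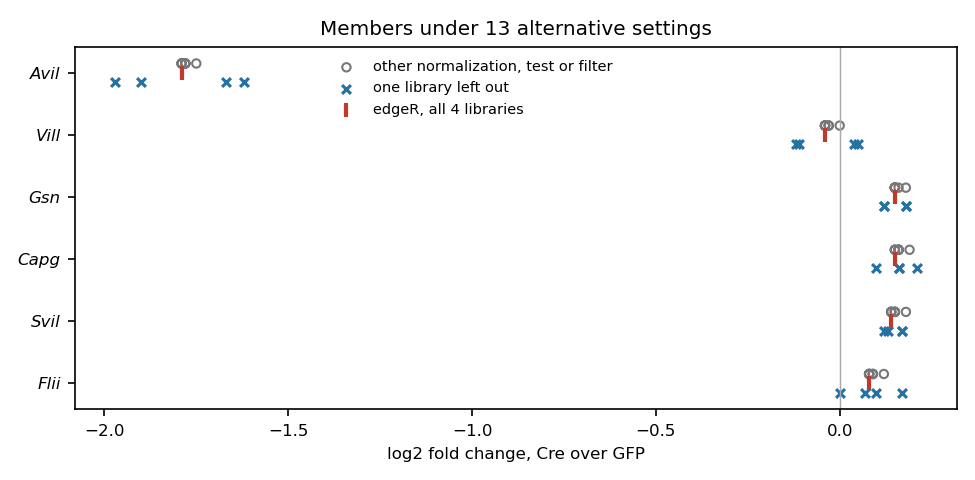
Log2 fold change (Cre over GFP) of the 6 members kept by the low-count filter, with all 4 libraries (red line), with another normalization, test or filter (open circles) and with 1 library left out (crosses). All values of Avil lie between -1.97 and -1.62, and those of Gsn, Capg and Svil lie above 0.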

How the data were processed

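Per the labels' protocols, RNA was made into libraries by a TruSeq kit. The deposited table holds raw read counts per gene. Per the submitters' processing notes, the aligner was HISAT2 and the genome GRCm38. For the counting program, its annotation, its strand setting and its treatment of multi-mapping reads, nothing is recorded in the sources read here.

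Counts of the 4 libraries were tested with edgeR 4.0.16 in R 4.3.3: filterByExpr (minimum count 10, total 15; 14483 genes kept), TMM, the quasi-likelihood test with a design of group alone, and Benjamini-Hochberg adjustment over the 14483 genes (threshold 0.05). The test was checked on simulated data. Log2 fold changes are Cre over GFP, and 95% intervals come from the same fit. Alternatives used DESeq2 1.42.0 and limma 3.58.1. Lengths and exon overlaps came from GENCODE M21, positions and promoters from RefSeq on GRCm38.p6.

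The members, lists and naming rule were chosen with earlier results of these data known. Named were the 8 members, Setd2, called list genes (at most 4 per direction, or all where a list had 5 or fewer), tested neighbours of Avil, called neighbours of other members, and the 5 genes most like Avil. The list sums without Lyz2 or without Col1a1 and Col1a2, list genes named with a value that did not pass, and zero-count markers, were chosen after their values were seen. Replicate counts differed by more than counting noise (median chi-square 1.78 and 3.85 times noise within Cre and GFP), so each library counts as 1 sample. Between a Cre and a GFP library this value ran from 3.43 to 5.85. These values scale libraries by total counts without TMM factors, which were 1.03 for GFP replicate 1 and 0.951 for GFP replicate 2. Differences of scale therefore enter them. By this measure the GFP libraries differed from each other more than Cre replicate 1 differed from GFP replicate 1 (3.43).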

Additional observations from a re-analysis of the deposited data

How the results depend on the processing

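The counts of calls depended on the settings. For actin filament genes, scaling by library size alone gave 6 higher and 2 lower, and no low-count filter gave 0 and 0. Leaving out 1 library gave from 0 to 5 higher and from 0 to 4 lower. Over all tested genes there were 530 calls with scaling by library size alone, 376 with DESeq2 (an adjusted p for 12517 genes), 30 without a low-count filter, and from 0 to 516 with 1 library left out. The labels do not say that replicate numbers pair the libraries, and the deviations of same-numbered libraries correlated at -0.01. With the replicate number as a block, 829 genes passed, with 7 higher and 4 lower actin filament genes and 0 family members beside Avil. Leaving out 1 library turned the sign of some log2 fold changes: Vill ranged from -0.12 to 0.05, Ctdsp2 from -0.16 to 0.02, Tsfm from -0.44 to 0.03 (without GFP replicate 1), LOC100504608 from -0.79 to 0.36 (without GFP replicate 1), March9 from -0.40 to 0.09 and Tspan31 from -0.02 to 0.00. By other settings Tspan31 alone turned, to 0.02 with scaling by library size alone and 0.00 without a low-count filter. The causes were not tested. With 2 libraries per group, depth limits Vil1 and Scin most, at 7 or fewer summed counts per group.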
